A study of Homo sapiens with 48 samples.

Results

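Nascent transcription of INHBA, TGFB2, SMAD3 and PMEPA1 was lower in the same 2 of 5 comparisons made in MCF10A-1 cells, contrasts 2 and 4. INHBA and TGFB2 are ligand genes of the TGF-beta superfamily, and PMEPA1 was lower in contrast 3 too. Under the numbers 2 and 4, the mRNA of these genes was lower by less or was not called. It is not stated that a contrast number means the same groups in both assays. The genes described are 9 members of the TGF-beta and activin pathway (INHBA, TGFB1, TGFB2, TGFBR2, SMAD3, SMAD7, SKIL, PMEPA1 and TGFBI), chosen by gene symbol. They are 9 of the 16494 symbols that the study measured, and all 9 are on both of its tables. MCF10A-1 is a human breast epithelial cell line, which the labels describe as a malignancy of such cells. The study measured it by GRO-seq, a nuclear run-on assay of RNA being made at the time of sampling, and by RNA-seq, which measures the RNA present in the cells. The 6 groups of each assay, with 4 libraries per group, were vector cells and cells that stably express the chromatin organiser SATB1, each untreated or given 4 µM benzo[a]pyrene for 3 hours or for 3 days. Every group, controls included, grew in medium with fetal bovine serum in place of horse serum and with epidermal growth factor, insulin, hydrocortisone and cholera toxin. The labels do not say whether the SATB1 cells are 1 clone or a pool.

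TGF-beta and activin ligands are secreted dimers that bind type II receptor kinases at the cell surface, which in turn activate type I receptors. The activated type I receptor phosphorylates SMAD2 and SMAD3, and these join SMAD4 and enter the nucleus to regulate target genes. Among the targets are inhibitors of the pathway itself, which makes it self-limiting. In breast epithelium the pathway is known for restraining division, and for promoting migration and the production of matrix in cells that no longer stop dividing in response to it. Benzo[a]pyrene is a polycyclic hydrocarbon that activates the aryl hydrocarbon receptor, a transcription factor whose best known target is CYP1A1.

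The DNA before the annotated starts of 5 of these genes is printed here because their nascent RNA carries the main results. Each window is the 250 bases before a start, written 5′ to 3′ on the gene's own strand, from RefSeq on GRCh38.p14. Capitals mark every match, on either strand, to 4 motifs. These are the SMAD core AGAC, a longer SMAD element CAGACA, the core GCGTG of the element that the aryl hydrocarbon receptor binds, and the AP-1 element TGANTCA. On the opposite strand the SMAD core reads GTCT and the receptor's core reads CACGC. The longer SMAD element holds the SMAD core within it, so those matches overlap.
INHBA, chr7:41703091-41703340, minus strand: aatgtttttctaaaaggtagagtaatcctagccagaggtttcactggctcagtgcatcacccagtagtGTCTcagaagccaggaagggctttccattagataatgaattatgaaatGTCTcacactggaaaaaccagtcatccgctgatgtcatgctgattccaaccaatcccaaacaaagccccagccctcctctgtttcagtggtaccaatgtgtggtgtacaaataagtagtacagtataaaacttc
TGFB2, chr1:218345086-218345335, plus strand: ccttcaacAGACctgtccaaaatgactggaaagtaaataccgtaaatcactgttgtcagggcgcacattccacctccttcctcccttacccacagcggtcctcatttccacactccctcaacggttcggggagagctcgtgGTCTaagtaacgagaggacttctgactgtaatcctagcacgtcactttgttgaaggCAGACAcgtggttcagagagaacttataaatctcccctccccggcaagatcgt
SMAD3, chr15:67065352-67065601, plus strand: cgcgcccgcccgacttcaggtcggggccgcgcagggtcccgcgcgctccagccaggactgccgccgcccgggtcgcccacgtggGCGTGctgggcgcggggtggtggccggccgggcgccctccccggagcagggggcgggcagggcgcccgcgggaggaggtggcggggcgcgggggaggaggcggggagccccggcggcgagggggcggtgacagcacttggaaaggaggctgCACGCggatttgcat
SMAD7, chr18:48950966-48951215, minus strand: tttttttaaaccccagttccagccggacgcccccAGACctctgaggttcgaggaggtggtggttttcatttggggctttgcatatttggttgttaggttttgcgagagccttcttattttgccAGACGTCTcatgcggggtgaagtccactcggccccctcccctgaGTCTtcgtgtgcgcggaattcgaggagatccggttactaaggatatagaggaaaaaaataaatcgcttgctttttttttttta
PMEPA1, chr20:57711473-57711722, minus strand: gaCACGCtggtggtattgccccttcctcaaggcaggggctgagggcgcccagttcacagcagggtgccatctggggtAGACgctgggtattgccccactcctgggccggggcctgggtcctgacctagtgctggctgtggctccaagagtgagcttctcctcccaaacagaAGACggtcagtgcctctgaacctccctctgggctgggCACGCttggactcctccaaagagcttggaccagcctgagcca
The INHBA window lies inside the annotated span of the gene, before the start that the table of promoters gives. SMAD3 has 5 annotated windows, PMEPA1 4 and SMAD7 3, and the outermost of each is printed. The SMAD core was found 2 times in the INHBA window, 3 times in that of TGFB2, 4 times in that of SMAD7, 2 times in that of PMEPA1 and 0 times in that of SMAD3. The aryl hydrocarbon receptor core was found 2 times each in the SMAD3 and PMEPA1 windows and 0 times in the other 3 printed. In the SMAD3 windows that are not printed the SMAD core was found 0, 2, 2 and 5 times. In the SMAD7 windows that are not printed the receptor's core was found 2 and 0 times. Over all 19 windows of the 9 genes, 84.2% held the SMAD core, against 77.5% of 35116 windows of the same length, and 36.8% held the aryl hydrocarbon receptor core, against 32.2%. CAGACA was in 15.8% against 13.6%, and the AP-1 element in 5.26% against 6.57%. These shares are a description of letters in a short window, and they say nothing of whether a factor binds there.

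The values are the authors' own comparisons, 5 numbered contrasts in each of 2 tables, each with a fold change and a p-value without adjustment for the number of genes. Neither header names the groups behind a contrast, or states that a contrast number stands for the same groups in both assays, so contrasts carry their number only. SATB1, which is on the RNA-seq table alone, had a fold of 112 in contrast 1 in the authors' deposited table and folds of 1.05, 0.836, 0.953 and 1.49 in contrasts 2 to 5. CYP1A1 had RNA-seq folds of 1.46, 195, 36.0, 45.6 and 4.79 in contrasts 1 to 5 of the authors' deposited table, and GRO-seq folds of 1.38, 163, 3.99, 48.0 and 2.90. No values per library were used here, so levels and depth are unknown, the markers of breast epithelium could not be checked by level, and fewer cells of a type and less RNA per cell cannot be told apart. The error given after ± is the standard error of a log2 fold change that the deposited p-value implies. Its median over all genes was 0.32 in GRO-seq and 0.058 in RNA-seq, so a GRO-seq difference has to be several times larger than an RNA-seq one to be called. A call means an adjusted p under 0.05, by the Benjamini-Hochberg method over all genes of an assay and contrast. The labels do not state that replicate libraries are separate cultures, and every p-value then reflects no more than the spread among these libraries, possibly a technical one.

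Of the 90 member values (9 genes, 5 contrasts, 2 assays), 41 were called. In GRO-seq the calls were almost all in the lower direction, 11 lower and 1 higher of 45 values. In RNA-seq they fell on both sides, with 15 higher and 14 lower of 45. In GRO-seq contrast 2, 5 of the 9 genes fell (INHBA, TGFB2, TGFBR2, SMAD3 and PMEPA1) and 1 rose (SMAD7), where 7.83% of all genes were called lower and 7.63% higher. In GRO-seq contrast 4, 4 fell (INHBA, TGFB2, SMAD3 and PMEPA1) and none rose, where 1.53% of all genes were called lower and 1.58% higher, and 1 member (TGFBI) was above 1 with an unadjusted p under 0.05. In GRO-seq contrast 3, 2 fell (PMEPA1 and TGFBI) and none rose, or was above 1 with an unadjusted limma p under 0.05, where 8.92% of all genes were called lower and 9.23% higher. In GRO-seq contrasts 1 and 5 the authors' limma p-values gave 0 called members, with 2 and 3 members at an unadjusted p under 0.05. The backgrounds of called genes there were small too, 0.495% lower and 0.292% higher in contrast 1, and 0.122% lower and 0.115% higher in contrast 5. The share of all genes at an unadjusted p under 0.05 was not computed. Unadjusted counts, here and below, therefore have no background to be read against.

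RNA-seq called more genes than GRO-seq in each contrast, and the share called among all genes is the measure against which the members' counts are read. In contrast 1, 5 members rose and 3 fell, where 23.2% of all genes were called higher and 20.7% lower. In contrast 2, 2 rose and 5 fell, where 9.64% were called higher and 9.63% lower, and in contrast 4, 1 rose and 4 fell, where 3.87% were called higher and 4.9% lower. The lower members of contrasts 2 and 4 include the same 4 genes, INHBA, TGFB1, TGFB2 and TGFBR2, with PMEPA1 as the fifth in contrast 2. In contrast 3, 4 rose and 1 fell, where 18.3% were called higher and 17.8% lower, and in contrast 5, 3 rose and 1 fell, where 10.5% were called higher and 10.9% lower. INHBA, SMAD3 and TGFBI rose in RNA-seq contrasts 1, 3 and 5, with TGFBR2 lower in each of them. Contrasts of a table may share control libraries, so their values are set side by side and a difference between contrasts was not tested.

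**Figure D1:**
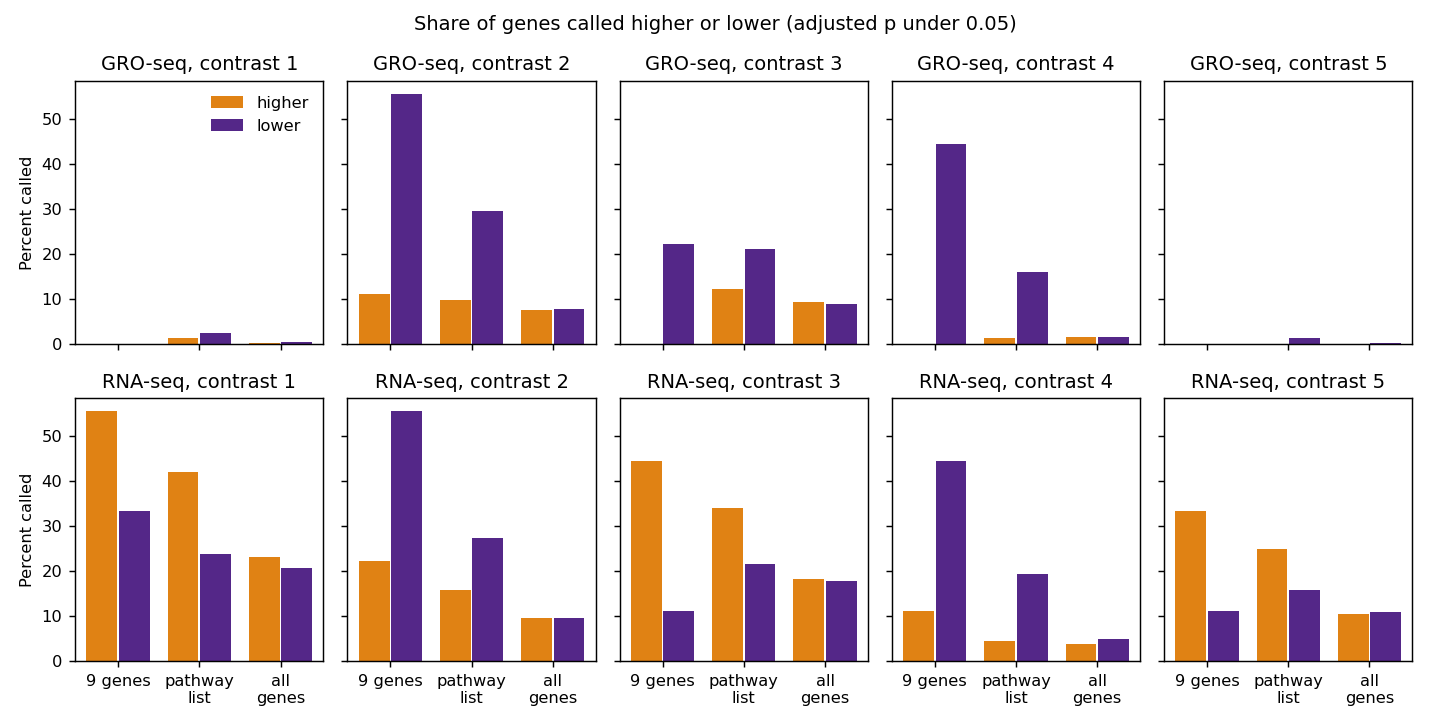
Percent of genes called higher (orange) or lower (purple) at an adjusted p under 0.05 in each contrast of GRO-seq (top) and RNA-seq (bottom), for the 9 genes, for the wider pathway list described below, which includes them, and for all genes. In GRO-seq contrasts 2 and 4 the lower bar of the 9 genes stands at 55.6% and 44.4%, where all genes are at 7.83% and 1.53%, and in RNA-seq the taller bar of the 9 genes is the lower one in contrasts 2 and 4 and the higher one in contrasts 1, 3 and 5.

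The members' medians differ between the assays as their calls do. On the log2 scale the median fold change of the 9 genes in GRO-seq was 0.14, -0.76, -0.53, -0.96 and -0.32 in contrasts 1 to 5. In RNA-seq it was 0.22, -0.09, 0.14, -0.10 and 0.07. The median of all genes lay between -0.02 and 0.01 in each GRO-seq contrast.

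INHBA, which encodes the beta A subunit of activin A and of inhibin A (chromosome 7, 41685114 to 41705406, minus strand), had the lowest GRO-seq fold of the 9 members in contrasts 2, 3 and 4. Its GRO-seq folds in contrasts 1 to 5 of the authors' deposited table were 1.06, 0.114, 0.412, 0.110 and 0.571. Contrasts 2 and 4 stand far below the other three: on the log2 scale INHBA fell, with values of -3.13 ± 0.54 in contrast 2 (adjusted p 0.000324, Benjamini-Hochberg over the authors' limma p-values) and -3.18 ± 0.52 in contrast 4 (adjusted p 0.000744). Those are the 14th and the 9th lowest folds of all 14745 entries of the GRO-seq table. The 95% intervals were wide, 0.0528 to 0.248 and 0.0526 to 0.232 in fold. In contrast 3 its fold of 0.412 had an adjusted p of 0.0626 and was not called.

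INHBA mRNA was called in all 5 RNA-seq contrasts and moved in both directions. Its RNA-seq folds in the authors' deposited table were 1.45, 0.594, 1.38, 0.718 and 1.34. It fell in contrasts 2 and 4, with log2 fold changes of -0.75 ± 0.066 and -0.48 ± 0.061, and rose in contrasts 1, 3 and 5, with 0.53 ± 0.061, 0.46 ± 0.060 and 0.43 ± 0.058. Contrasts 2 and 4 are those in which both its nascent RNA and its mRNA were called lower. In contrasts 3 and 5 its GRO-seq folds of 0.412 and 0.571 were below 1 as well, though not called, while its mRNA rose. In contrast 3 the 2 assays differed by -1.74 on the log2 scale (adjusted p 0.0023, by the normal test described below). For INHBA mRNA the adjusted p ranged from 2.69e-10 in contrast 2 to 1.46e-06 in contrast 5 (Benjamini-Hochberg over the deposited p-values).

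TGFB2, which encodes the TGF-beta 2 ligand (chromosome 1, 218345336 to 218444619, plus strand), was lower wherever it was called. Its GRO-seq folds in the authors' deposited table were 1.1, 0.379, 0.691, 0.35 and 0.864, and its RNA-seq folds were 0.887, 0.682, 1.1, 0.711 and 0.916. In GRO-seq it fell in contrasts 2 and 4, with log2 fold changes of -1.4 ± 0.26 and -1.51 ± 0.26 (Benjamini-Hochberg adjusted p 0.000753 and 0.000951). In RNA-seq it fell in contrasts 1, 2 and 4. As with INHBA, contrasts 2 and 4 held its lowest values in both assays.

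TGFB1, which encodes the TGF-beta 1 ligand (chromosome 19, 41330323 to 41353922, minus strand), had small fold changes. None of its 5 GRO-seq folds, 0.797 to 1.31 in the authors' deposited table, was called, and none had an unadjusted limma p under 0.05. Its RNA-seq folds were 1.17, 0.936, 1.02, 0.916 and 1.05 in the authors' deposited table. It rose in contrast 1 (log2 0.22 ± 0.034) and fell in contrasts 2 and 4, with adjusted p of 0.0494 and 0.0154. The call in contrast 2 is lost when fold changes are centred on the median of all genes. The limits of its GRO-seq intervals, 0.495 to 2.03 over the 5 contrasts, do not exclude changes of the size seen in its mRNA.

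TGFBR2, the type II receptor that binds TGF-beta ligands (chromosome 3, 30606356 to 30694142, plus strand), was lower in every RNA-seq contrast. Its RNA-seq folds in the authors' deposited table were 0.893, 0.772, 0.903, 0.776 and 0.824. The interval of each excludes 1, and the adjusted p ranged from 2.72e-09 in contrast 2 to 0.00132 in contrast 3 (Benjamini-Hochberg over the deposited p-values). Contrasts 2 and 4 again held the lowest values, a log2 fold change of -0.37 in both. In GRO-seq its folds were 1.2, 0.592, 0.838, 0.684 and 0.847 in the authors' deposited table, of which the one in contrast 2 was called, a log2 fold change of -0.76 ± 0.20 (adjusted p 0.0102). The fold of 0.684 in contrast 4 had an adjusted p of 0.127.

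SMAD3, which carries the signal of activated TGF-beta and activin receptors to the nucleus (chromosome 15, 67065602 to 67195169, plus strand), fell in nascent RNA and rose or was not called in mRNA. Its GRO-seq folds in the authors' deposited table were 1.09, 0.398, 0.800, 0.504 and 0.706. It fell in contrasts 2 and 4, with log2 fold changes of -1.33 ± 0.20 and -0.99 ± 0.19 (Benjamini-Hochberg adjusted p 7.46e-05 and 0.00352). Its RNA-seq folds were 1.38, 0.998, 1.27, 1.03 and 1.18 in the authors' deposited table. SMAD3 mRNA rose in contrasts 1, 3 and 5. In contrasts 2 and 4, where its nascent RNA fell, the intervals of the mRNA fold were 0.945 to 1.05 and 0.981 to 1.09.

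SMAD7, the inhibitory SMAD that pathway activity induces and that blocks the receptors (chromosome 18, 48919853 to 48950965, minus strand), was the only member to rise in GRO-seq. Its GRO-seq folds in the authors' deposited table were 1.80, 1.86, 1.49, 0.653 and 0.962, above 1 in contrasts 1 to 3 and below 1 in contrasts 4 and 5. The rise in contrast 2 was 0.89 ± 0.28 on the log2 scale (adjusted p 0.0300, Benjamini-Hochberg). The fold of 1.80 in contrast 1 had an adjusted p of 0.146 and was not called. Its RNA-seq folds were 0.861, 1.12, 1.02, 1.00 and 1.04 in the authors' deposited table, and of these only the lower one in contrast 1 was called (log2 -0.22 ± 0.070).

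SKIL encodes SnoN, a repressor that binds SMAD complexes and is itself a TGF-beta target (chromosome 3, 170357715 to 170396849, plus strand). Its GRO-seq folds in the authors' deposited table were 1.4, 0.657, 0.612, 0.515 and 0.629, with none called. The unadjusted p was under 0.05 in contrasts 3, 4 and 5. In RNA-seq it stood above 1 throughout, at 1.11, 1.26, 1.23, 1.15 and 1.13 in the authors' deposited table, and rose in contrasts 2 and 3 (adjusted p 0.0108 and 0.00913).

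PMEPA1, a TGF-beta target whose membrane protein restrains SMAD activation (chromosome 20, 57648396 to 57711472, minus strand), was the member called most often in GRO-seq. Its GRO-seq folds in the authors' deposited table were 0.992, 0.327, 0.457, 0.322 and 0.497. It fell in contrasts 2, 3 and 4, with log2 fold changes of -1.61 ± 0.24, -1.13 ± 0.23 and -1.64 ± 0.23 (Benjamini-Hochberg adjusted p 6.16e-05, 0.00142 and 0.000210). The fold of 0.497 in contrast 5 just missed the threshold, with an adjusted p of 0.0569. Its RNA-seq folds lay close to 1, at 1.2, 0.869, 1.04, 0.933 and 0.978 in the authors' deposited table. PMEPA1 mRNA rose in contrast 1 and fell in contrast 2, and in contrast 4 its adjusted p of 0.050 did not pass.

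TGFBI, a secreted matrix protein named for its induction by TGF-beta (chromosome 5, 136028988 to 136063818, plus strand), rose in every RNA-seq contrast. Its RNA-seq folds in the authors' deposited table were 1.28, 1.16, 1.69, 1.09 and 1.35. The rise was largest in contrast 3, 0.75 ± 0.024 on the log2 scale, and smallest in contrast 4, 0.13 ± 0.022 (Benjamini-Hochberg adjusted p 1.4e-21 and 0.000173). Its GRO-seq folds were 0.597, 0.812, 0.545, 1.61 and 0.906 in the authors' deposited table. The fall in contrast 3 (log2 fold change -0.88 ± 0.25, adjusted p 0.0148), was the only GRO-seq call, and it stands in the contrast where the mRNA rose most.

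**Figure D2:**
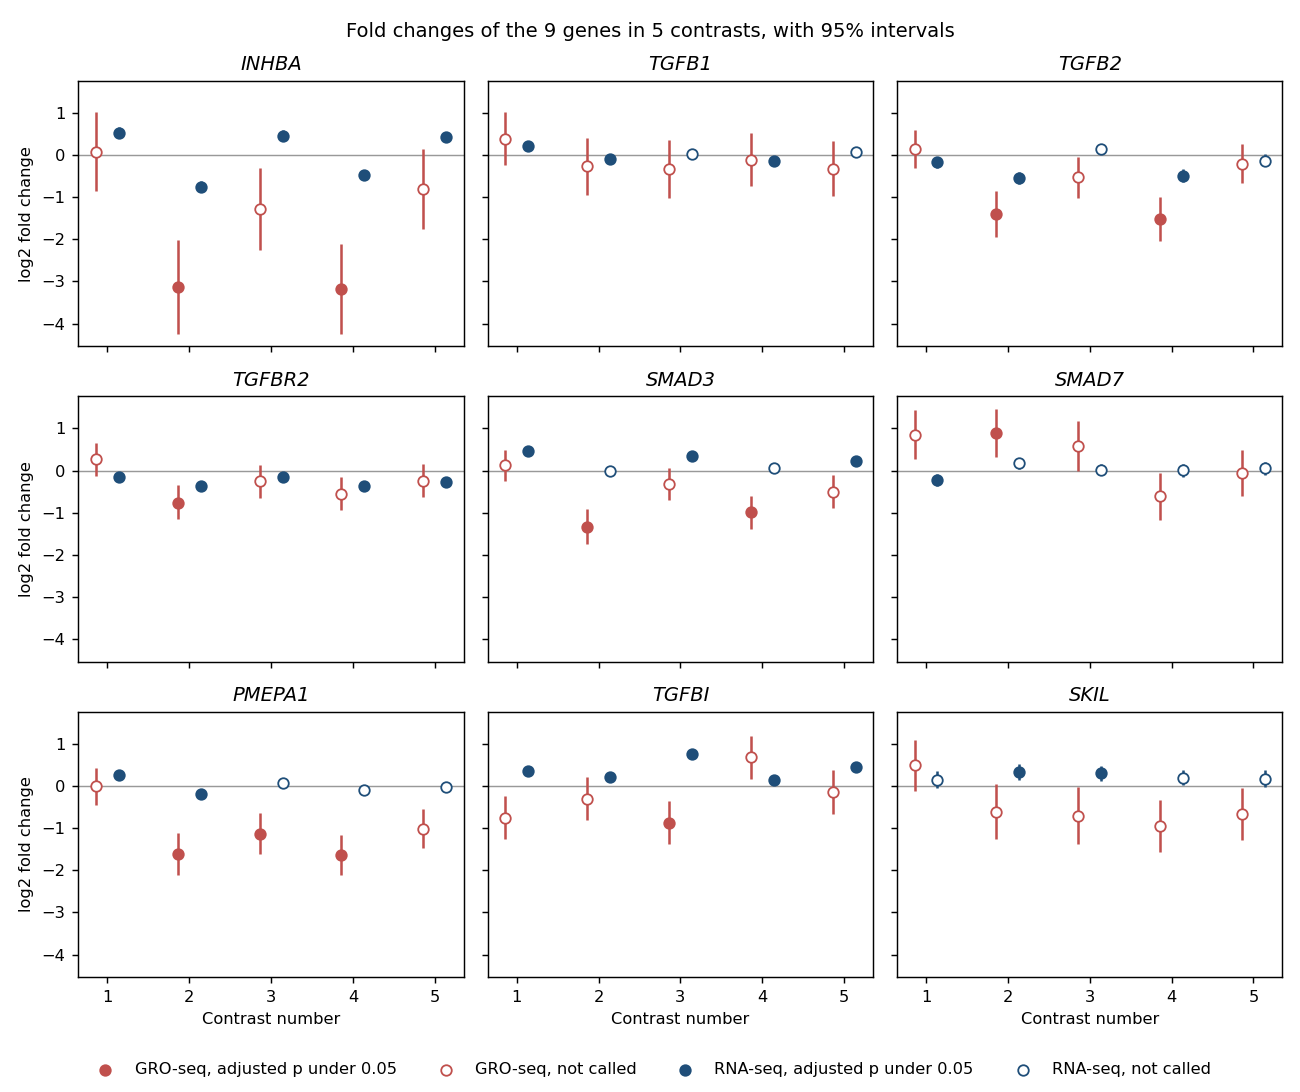
Log2 fold change of each of the 9 genes in contrasts 1 to 5 of GRO-seq and RNA-seq, with bars for the 95% interval implied by the deposited p-value and filled points for calls at an adjusted p under 0.05. INHBA, TGFB2, SMAD3 and PMEPA1 reach their lowest GRO-seq values in contrasts 2 and 4, with INHBA below -3 in both, and the RNA-seq points stay between -0.75 and 0.75.

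The difference between the assays was tested for each gene as its GRO-seq log2 fold change minus its RNA-seq log2 fold change in the contrast of the same number, with Benjamini-Hochberg adjustment over the 13771 genes on 1 row of each table. It was called in 20 of the 45 member values, 19 with the GRO-seq value below the RNA-seq value and 1 with it above. In 12 of the 20 the signs were opposite. Such opposite signs were also called for 14, 5, 16, 3 and 5 of 72 other pathway genes, described below, in contrasts 1 to 5. The share of all genes with opposite signs was not computed. In contrast 2, 5 members were below (INHBA, TGFB2, SMAD3, SKIL and PMEPA1) and none above, with SMAD7 above at an adjusted p of 0.061, where 8.76% of all genes were called below and 7.92% above. In contrast 4 the same 5 genes were below and none above, where 2.3% of all genes were below and 2.27% above. In contrast 3, TGFBI joined these 5, where 13.3% of all genes were below and 12.8% above. In contrast 1, TGFBI was below and SMAD7 above, where 5.03% and 4.34% of all genes were, and in contrast 5, SMAD3 and PMEPA1 were below, where 1.37% of all genes were below and 1.79% above.

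PMEPA1 and SMAD3 differed between the assays in contrasts 2, 3, 4 and 5. For PMEPA1 the GRO-seq value minus the RNA-seq value was -1.41, -1.19, -1.54 and -0.98 on the log2 scale in those contrasts, with standard errors of 0.23 to 0.24. For SMAD3 it was -1.32, -0.67, -1.04 and -0.73, with standard errors of 0.19 to 0.20. INHBA had the largest differences of the members, -2.38 ± 0.54 in contrast 2 and -2.7 ± 0.52 in contrast 4 (adjusted p 0.00034 and 5.3e-05). TGFB2 differed by -0.85, -0.67 and -1.02 in contrasts 2, 3 and 4. TGFBR2 and TGFB1 differed in none of the 5 contrasts by this test, with differences of -0.38 to 0.43 for TGFBR2 (standard errors 0.19 to 0.20) and of -0.39 to 0.17 for TGFB1 (standard errors 0.30 to 0.34). The wider errors of GRO-seq limit what could be seen for TGFB1. The assays differ in library preparation, tools and normalization, and a contrast number is not stated to mean the same groups in both, so the part of these in the differences was not tested.

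**Figure D3:**
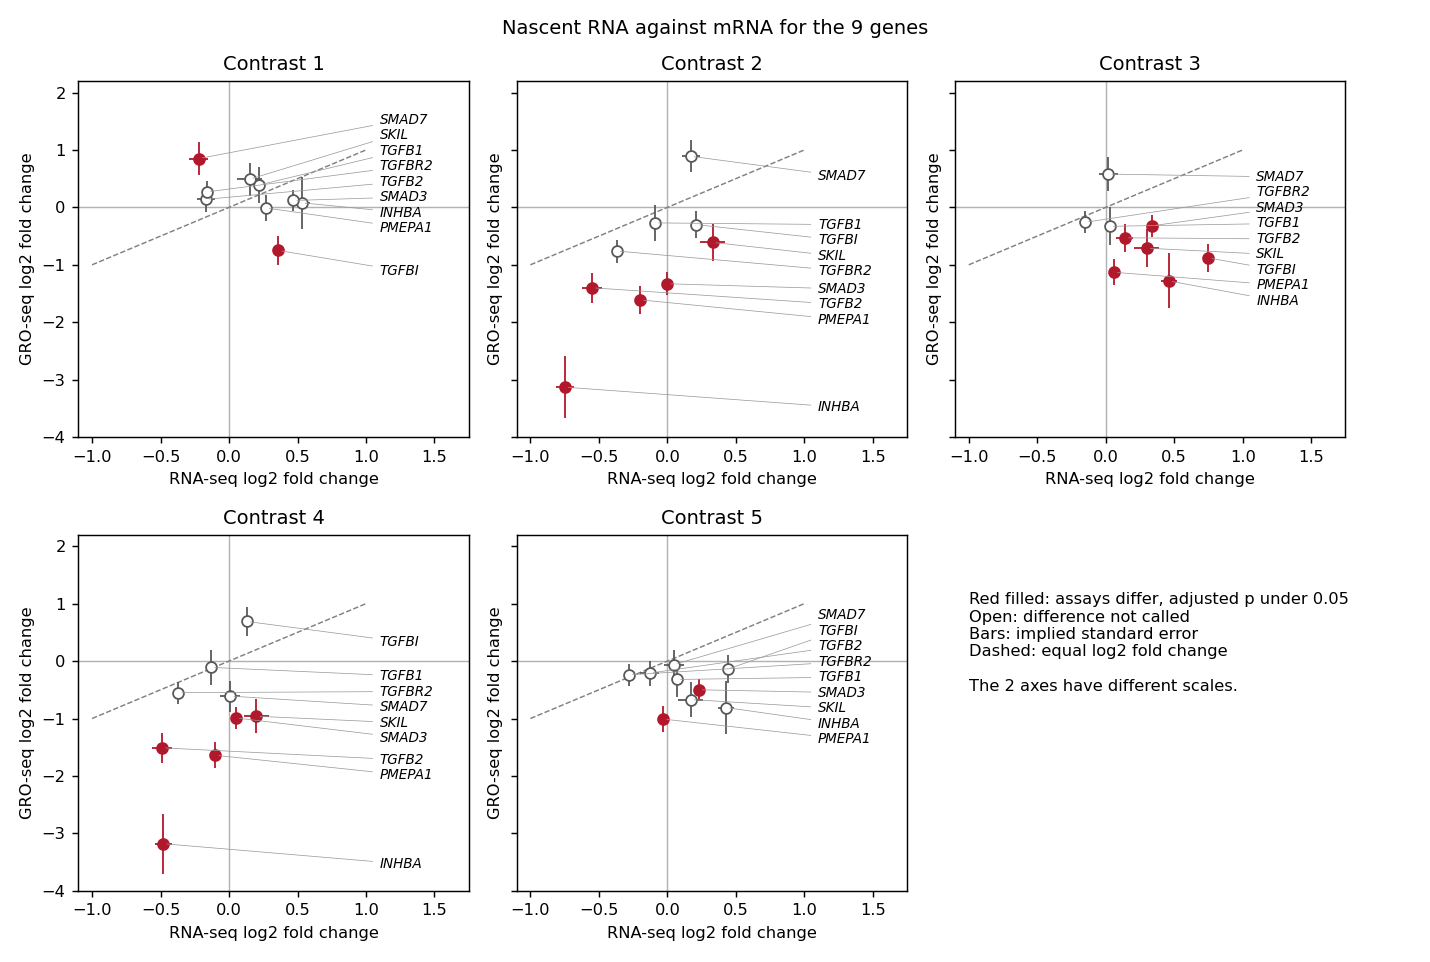
GRO-seq log2 fold change (vertical) against RNA-seq log2 fold change (horizontal) of the 9 genes, 1 panel per contrast, with bars for implied standard errors, a dashed line where both are equal and red points where the difference passed an adjusted p under 0.05. The axes have different scales. Red points lie below the dashed line in 19 of 20 cases, and INHBA in contrasts 2 and 4 lies farthest below it.

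The members were set beside a wider list of 93 pathway genes in 6 role lists (ligands, latent ligand binding and activation, secreted antagonists, receptors and co-receptors, SMADs and their regulators, and transcriptional targets), of which 81 were on the GRO-seq table and 88 on the RNA-seq table, members included. In GRO-seq, 24 of 81 fell and 8 rose in contrast 2, 17 fell and 10 rose in contrast 3, and 13 fell and 1 rose in contrast 4. In contrast 1, 2 fell and 1 rose, and in contrast 5, 1 fell and none rose, with 19 of the 81 at an unadjusted limma p under 0.05. No share of all genes at that unadjusted threshold was computed, so the 19 cannot be read as an excess. Leaving out the 9 members, 26.4% of the other 72 genes fell and 9.72% rose in contrast 2, 20.8% fell and 13.9% rose in contrast 3, and 12.5% fell and 1.39% rose in contrast 4. Among all genes the shares that fell were 7.83%, 8.92% and 1.53% in those contrasts, and the shares that rose were 7.63%, 9.23% and 1.58%. The median log2 fold change of those 72 was -0.25, 0.11 and -0.29 in the 3 contrasts.

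By role, the lower calls in GRO-seq contrast 2 were in ligands (3 of 7), latency and activation genes (4 of 9), secreted antagonists (2 of 5), receptors (2 of 9), SMADs and their regulators (3 of 18) and transcriptional targets (14 of 39). Of all genes, 7.83% were called lower there and 7.63% higher. The role lists overlap, so some genes count in more than 1 role. Of these lower genes, LTBP2, THBS1 and ITGB6 are latency genes and targets, and PMEPA1 is a SMAD regulator and a target. The targets, the largest list, had 11 of 39 lower and 4 higher in contrast 3 and 9 of 39 lower in contrast 4, shares of 28.2% and 23.1% for the lower ones beside 8.92% and 1.53% of all genes. Of the ligands, INHBA and TGFB2 fell in contrasts 2 and 4, and in contrast 3 the 1 ligand called was higher. That ligand, named after its values were seen, was GDF15, a distant member of the superfamily, with a GRO-seq fold of 6.94 in the authors' deposited table (adjusted p 0.00323, Benjamini-Hochberg). Of the latency and activation genes, 2 fell and 1 rose in contrast 3, and 2 fell in contrast 4. Of the 5 secreted antagonists, 2 fell in contrast 3, and 1 rose in each of contrasts 2 and 4. The antagonist that rose was DCN, a matrix proteoglycan that binds TGF-beta, with GRO-seq folds of 12.8 and 24.8 in contrasts 2 and 4 of the authors' deposited table, and it was the 1 gene of the wider list to rise in contrast 4. SMADs and their regulators went both ways in contrast 2, with 5 of 18 higher and 3 lower, PMEPA1 and SMAD3 among the lower and SMAD7 among the higher. Of the 9 receptors and co-receptors measured, TGFBR2 among them, 2 fell and 1 rose in contrast 2, and 1 fell and 2 rose in contrast 3. In contrast 4 the authors' limma p-values gave 0 called receptors, with 3 at an unadjusted p under 0.05, a count with no background beside it.

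The pathway genes named here, and those named for RNA-seq below, were picked because they were called, by smallest adjusted p in a contrast and assay. Their calls follow from that choice, so they are a description and lend no weight to the members' values. Several fell in the same GRO-seq contrasts as the members. HMGA2, a chromatin protein that TGF-beta induces, had GRO-seq folds of 0.763, 0.205, 0.230, 0.461 and 0.691 in contrasts 1 to 5 of the authors' deposited table, with contrasts 2, 3 and 4 called. TAGLN, an actin-binding protein of contractile cells, had folds of 0.497, 0.203, 0.181, 0.214 and 0.201 in the authors' deposited table, with contrasts 2 to 5 called. TNC, the matrix protein tenascin C, had folds of 1.4, 0.107, 0.689, 0.175 and 0.536 in the authors' deposited table and fell in contrasts 2 and 4, as SMAD3 did. ANGPTL4, a secreted lipase inhibitor, had folds of 0.486, 0.0528, 0.143, 0.211 and 0.382 in the authors' deposited table, with contrasts 2, 3 and 4 called. These 4 are textbook TGF-beta targets in other cells, and each has inputs from other pathways. Their mRNA fell by less, hardly changed or rose in contrasts 2, 3 and 4. The RNA-seq log2 fold changes there were -0.21, 0.44 and -0.12 for HMGA2 and -0.01, 0.04 and -0.1 for TAGLN. They were -0.13, 0.41 and -0.15 for TNC and -0.63, 0.75 and -0.3 for ANGPTL4. PTHLH, which encodes parathyroid hormone-related protein, fell in contrasts 2, 3 and 4 too, with folds of 0.278, 0.418 and 0.127 in the authors' deposited table. THBS1, which encodes the TGF-beta activator thrombospondin 1, fell in contrasts 2 and 3, at 0.135 and 0.104 in the authors' deposited table, and was at 0.766 in contrast 4, not called. THBS1 mRNA had log2 fold changes of 0.09, 0.29 and 0.01 in contrasts 2, 3 and 4. FSTL3, an activin-binding antagonist, fell in contrasts 1, 2 and 3, with GRO-seq folds of 0.322, 0.471 and 0.288 in the authors' deposited table. LMCD1 fell in the same contrasts, at 0.183, 0.337 and 0.131 in the authors' deposited table. JUNB, an AP-1 subunit, went the other way and rose in contrasts 1, 2 and 3, with folds of 2.24, 2.17 and 3.01 in the authors' deposited table, contrast 2 being the one in which 5 members fell.

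**Figure D4:**
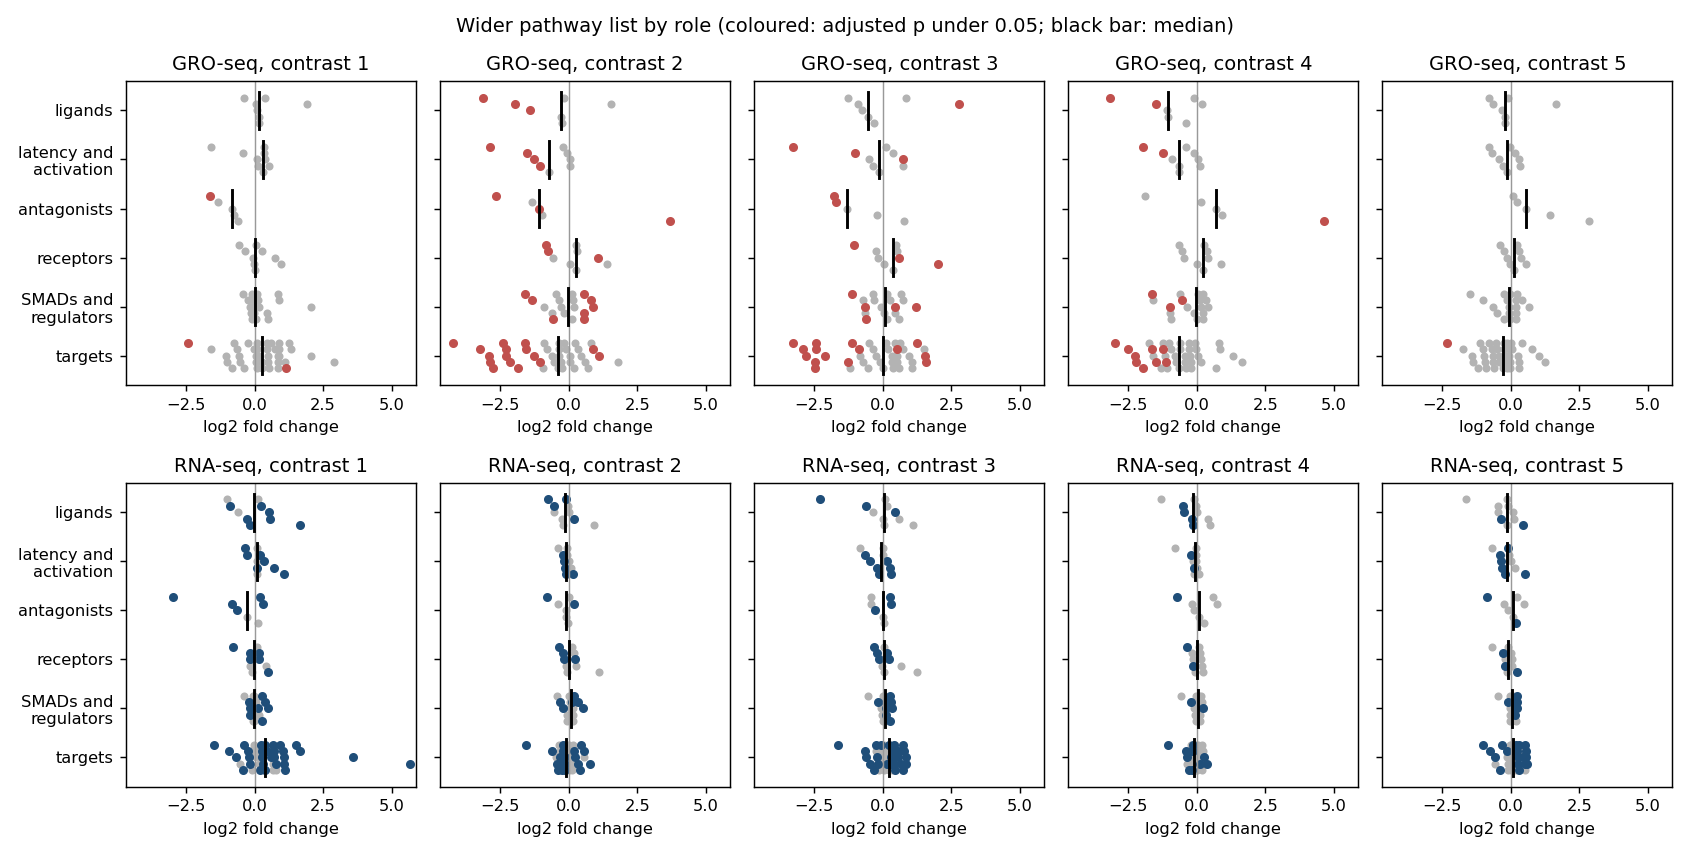
Log2 fold change of each gene of the wider pathway list, by role (vertical) and contrast, in GRO-seq (top) and RNA-seq (bottom), with coloured points for genes called at an adjusted p under 0.05, grey points for the others and a black bar at the median of each role. In GRO-seq contrasts 2 and 4 the coloured targets lie mostly to the left of 0, 14 lower and 2 higher in contrast 2 and 9 lower and 0 higher in contrast 4.

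In RNA-seq the wider list was called in both directions. Of 88 genes, 37 rose and 21 fell in contrast 1, 42.0% and 23.9%, beside 23.2% and 20.7% of all genes. In contrast 2, 14 rose and 24 fell, 15.9% and 27.3%, beside 9.64% and 9.63%, and in contrast 3, 30 rose and 19 fell, 34.1% and 21.6%, beside 18.3% and 17.8%. In contrast 4, 4 rose and 17 fell, 4.55% and 19.3%, beside 3.87% and 4.9%, and in contrast 5, 22 rose and 14 fell, 25.0% and 15.9%, beside 10.5% and 10.9%. The lower shares in contrasts 1 and 3 and the higher share in contrast 4 lay near those of all genes. Contrasts 2 and 4 had more lower than higher calls, as among the members.

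ANGPTL4 mRNA had folds of 3.12, 0.644, 1.68, 0.811 and 1.47 in contrasts 1 to 5 of the authors' deposited table and was called in all of them, lower in contrasts 2 and 4 and higher in the others, as INHBA was. SNAI2, a repressor of epithelial genes, was also called in all 5 in those directions, with folds of 1.18, 0.743, 1.18, 0.779 and 1.14 in the authors' deposited table. LTBP1, which holds latent TGF-beta in the matrix, had folds of 1.05, 0.961, 0.642, 0.986 and 0.782 in the authors' deposited table, higher in contrast 1 and lower in contrasts 3 and 5. CDKN1A, the cell cycle inhibitor p21, had RNA-seq folds of 0.851, 1.46, 1.48, 1.29 and 1.23 in the authors' deposited table, so it fell in contrast 1 and rose in the other four. NEDD4L, a ubiquitin ligase of SMADs, had folds of 1.2, 1.43, 1.0, 1.18 and 1.05 in the authors' deposited table and rose in all but contrast 3. JUNB mRNA, at 1.04, 1.32, 1.05, 1.2 and 1.17 in the authors' deposited table, rose in contrasts 2, 4 and 5. COL1A1, a collagen chain, had folds of 12.1, 1.72, 1.46, 0.916 and 0.661 in the authors' deposited table, higher in contrasts 1, 2 and 3 and lower in contrast 5. DCN mRNA had folds of 0.125, 1.14, 1.24, 1.19 and 0.836 in the authors' deposited table, lower in contrast 1 and higher in contrasts 2 and 3.

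Follistatin, the secreted antagonist that binds activin A, was looked up because of INHBA and was named after its values were seen. FST had GRO-seq folds of 0.398, 0.158, 0.306, 0.269 and 1.16 in the authors' deposited table, of which contrasts 2 and 3 were called (adjusted p 0.00866 and 0.0446). Its mRNA fell in all 5 contrasts, with RNA-seq folds of 0.632, 0.583, 0.828, 0.598 and 0.552 in the authors' deposited table. FST mRNA was therefore lower also in contrasts 1, 3 and 5, in which INHBA mRNA was higher.

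The other pathway genes also differed between the assays, in 17, 24, 24, 14 and 7 of 72 cases in contrasts 1 to 5. The GRO-seq value was the lower one in 13.9%, 25.0%, 19.4%, 15.3% and 6.94% of the 72, where 5.03%, 8.76%, 13.3%, 2.3% and 1.37% of all genes were. It was the higher one in 7, 6, 10, 3 and 2 of the 72, where 4.34%, 7.92%, 12.8%, 2.27% and 1.79% of all genes were. In the authors' deposited table, HMGA2 in contrast 3 was at 0.230 by GRO-seq and 1.35 by RNA-seq.

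Contrast 1, in which SATB1 mRNA had its 112-fold value, carried large differences in genes of other kinds beside the members' values. In RNA-seq the folds of CDKN2A, CDKN2B and MTAP, neighbours on chromosome 9, were 301, 50.4 and 31.1 in the authors' deposited table. By GRO-seq, CDKN2A and CDKN2B stood at 12.3-fold and 7.54-fold in contrast 1, and neither was called (Benjamini-Hochberg adjusted p 0.269 and 0.0887). Of 10 fibroblast markers, 6 rose and 1 fell in RNA-seq contrast 1, with a median log2 fold change of 2.42 and a range of -3.0 to 9.41. Among those that rose were COL1A2, COL3A1, THY1 and PRRX1, with deposited folds of 681, 379, 137 and 99.1. The marker that fell was DCN, at 0.125. Of 7 macrophage markers, 1 rose (CD163, at 302 in the authors' deposited table) and 1 fell (ITGAM, at 0.351). Of 10 epithelial markers, 4 rose and 6 fell. In this RNA-seq contrast 23.2% of all genes rose and 20.7% fell. CDKN2B, COL1A1 and DCN are also on the wider pathway list, so its counts in this contrast include them. The members' RNA-seq folds in contrast 1 were far smaller, from 0.861 (SMAD7) to 1.45 (INHBA). The part of these other genes in the members' values was not tested, and no marker levels were available.

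Markers of cell types were called in the other contrasts as well. In GRO-seq contrast 4, where INHBA, TGFB2, SMAD3 and PMEPA1 fell, 3 of 10 epithelial markers rose and none fell, where 1.58% of all genes rose. These were the keratins KRT5, KRT14 and KRT17, with GRO-seq folds of 3.36, 2.74 and 2.84 in the authors' deposited table. KRT5 rose also in contrast 2 of GRO-seq, to 1.85-fold in the authors' deposited table, and no epithelial marker fell. In that contrast 7.63% of all genes rose and 7.83% fell. Of 9 fibroblast markers, DCN rose in contrasts 2 and 4, and FAP fell in contrasts 2 and 3, with folds of 0.156 and 0.228 in the authors' deposited table. Called or not, 8 of the 9 were above 1 in contrast 4, with a median log2 fold change of 1.66 beside 0.01 for all genes. In contrast 2, 3 were above 1 and 6 below, with a median of -0.51. Contrast 3 of GRO-seq had 2 epithelial markers higher, and of 7 macrophage markers 1 rose and 1 fell, where 9.23% of all genes rose and 8.92% fell. In RNA-seq, 4, 9, 3 and 6 of 10 epithelial markers fell in contrasts 2 to 5, and 1, 0, 1 and 1 rose. Of all genes, 9.63%, 17.8%, 4.9% and 10.9% fell in those contrasts, and 9.64%, 18.3%, 3.87% and 10.5% rose. Of 10 fibroblast markers, 2, 3, 0 and 0 rose and 1, 0, 2 and 5 fell in those contrasts, and of 7 macrophage markers 0, 1, 0 and 0 rose and 1, 0, 1 and 2 fell. The part of these markers in the members' values was not tested.

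For the 6 members called in at least 4 of the 10 combinations of assay and contrast, genes with the most similar pattern of log2 fold changes over those 10 values were looked up among 2076 genes. Those 2076 were themselves called in at least 4 of the 10, out of 13771 genes on 1 row of each table. They were thus selected for having changed. Among the nearest to INHBA were MFHAS1 and ARNTL2, with Pearson r of 0.988 and 0.975. INHBA was itself among the 3 nearest to TGFB2 (0.952), after XDH (0.961) and NEDD4 (0.955). TNC was among the nearest to SMAD3 (0.983), between KLF7 (0.989) and WTIP (0.982). PMEPA1 was nearest to LAMB3 (0.980), MICAL2 (0.979) and MYO10 (0.979), TGFBI to PSME3 (0.967), CENPJ (0.946) and DNA2 (0.945), and TGFBR2 less closely to C6orf141 (0.910), KAZN (0.899) and SPRY2 (0.886). The 10 values share libraries and the large scale of the GRO-seq changes, so these are descriptions of likeness with no test.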

How the data were processed

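GRO-seq and RNA-seq of MCF10A-1 cells were measured in 48 libraries, 24 per assay, in 6 groups of 4. For the short exposure, 1 protocol text disagrees with the titles, which were followed. Per the submitters' processing notes, the GRO-seq tools were BWA 0.7.16a, featureCounts and limma, the RNA-seq tools STAR and DESeq, and the build GRCh38. For settings, annotation, filters and the use of strand, the entry is "not given in the sources used here". Genes that overlap the members (antisense transcripts of INHBA, TGFB2 and SMAD3 among them) are on neither table, so reads of theirs cannot be told apart. Per the file headers, the authors deposited, for 5 contrasts per table, an unadjusted p-value and a linear fold ratio per gene. The 2 tables hold no values per library, so no SD, depth or refit was possible. The tests planned for libraries were replaced by the deposited comparisons.

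From these, adjusted p-values were computed by Benjamini and Hochberg's method (Benjamini-Hochberg) over all rows with a symbol within a contrast (156 rows without one, 0.994% of the RNA-seq table, were left out), with a threshold of 0.05. The implied standard error is the log2 fold change divided by the Student quantile of its p, under the degrees of freedom (25 for GRO-seq, 31 for RNA-seq) that made the 5 errors of a gene most alike. The assay difference used a two-sided normal test on both errors. Coordinates came from RefSeq, GRCh38.p14. The degrees of freedom, the calls and the assay difference were run on simulated data with planted changes. For the assay difference the simulated errors were normal, with known standard errors not matched by gene. That simulation therefore does not test the use of implied standard errors in the assay difference. Calculations used scipy 1.17.1, pandas 2.3.3 and numpy 2.4.6 under Python 3.11.15, and figures matplotlib 3.10.9.

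The members, gene lists and alternatives were chosen with earlier results of these data known. All 9 members were named, with up to 4 called genes of the wider list per contrast and assay by smallest adjusted p, SATB1, CYP1A1 and the 9p21 genes as checks, and the 3 genes most alike to each member called in at least 4 combinations. Some genes that this rule picks are not reported here.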

Additional observations from a re-analysis of the deposited data

Results flagged for a closer look

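The difference between the assays was called with opposite signs in 12 of the 45 member values, and these are listed because the GRO-seq and RNA-seq values of a gene lay on opposite sides of 0 under the same contrast number. Opposite signs were not particular to the members. They were called for 14, 5, 16, 3 and 5 of the 72 other pathway genes in contrasts 1 to 5, and the share of all genes was not computed. In contrast 1, the GRO-seq log2 fold change of SMAD7 was above the RNA-seq value by 1.07, and that of TGFBI differed from it by -1.1. In contrast 2, SKIL differed by -0.94.

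Contrast 3 held 6 of the 12, the most of any contrast: TGFB2 differed by -0.67, INHBA by -1.74, SMAD3 by -0.67, SKIL by -1.01, PMEPA1 by -1.19 and TGFBI by -1.63. In contrast 4, SMAD3 differed by -1.04 and SKIL by -1.16, and in contrast 5, SMAD3 differed by -0.73. Each difference passed the Benjamini-Hochberg threshold over 13771 genes, but most of the single values behind them were not called on their own in GRO-seq. No cause of these differences was tested.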

How the results depend on the processing

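Of the 12 GRO-seq calls among the members, 9 were kept at an adjusted p under 0.01 or with Benjamini-Yekutieli adjustment, 12 with at least 1.5-fold or with centring on the median of all genes, and 8 with at least 2-fold. Of the 29 RNA-seq calls, 24, 23, 2, 28 and 0 were kept at 0.01, with Benjamini-Yekutieli adjustment, at 1.5-fold, with centring and at 2-fold. Most RNA-seq calls were lost at a minimum fold because those mRNA changes were smaller than 1.5-fold. No setting reversed a called value; SMAD3 in RNA-seq contrast 2, not called, moved from just below 0 to 0.003 on the log2 scale with centring.

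Called members in GRO-seq contrast 3 came to 1 at 0.01, at 2-fold and with Benjamini-Yekutieli adjustment, and in contrast 5 to 1 at 0.1 or with genes of low standard error only. Of all 14745 genes in contrast 3, 683 rose and 635 fell at 0.01, and 802 and 641 at 2-fold. With Benjamini-Yekutieli adjustment 520 rose and 436 fell. In contrast 5, 45 rose and 48 fell at 0.1, and 17 and 19 of 7373 with low standard errors. In RNA-seq contrasts 1 to 5 called members came to 0, 1, 1, 0 and 0 at 1.5-fold and to 0 in each at 2-fold, and with low standard errors only to 5, 4 and 3 in contrasts 1 to 3, where 5 of the 9 were tested. Of all 7768 genes with low standard errors, 2343, 1097 and 2237 rose and 1990, 1292 and 1823 fell in contrasts 1 to 3. Called pathway genes at 1.5-fold in RNA-seq were 23, 5, 12, 2 and 4, and at 2-fold 11, 1, 2, 1 and 1. Of all 15535 genes, 881, 137, 171, 42 and 80 rose and 738, 110, 493, 38 and 248 fell at 1.5-fold. At 2-fold, 609, 72, 64, 24 and 36 rose and 433, 45, 223, 19 and 108 fell. In GRO-seq contrast 1 called pathway genes were 0 at 0.01, 6 at 0.1, 0 with Benjamini-Yekutieli adjustment and 1 with low standard errors, and in contrast 5 they were 0, 3 and 0 for the first 3 of these and 2 with genes on 1 row of both tables only. Of all genes in the same order, 0, 148, 0 and 33 rose and 1, 185, 0 and 54 fell in contrast 1. In contrast 5, 0, 45, 0 and 19 rose and 0, 48, 0 and 20 fell. With Benjamini-Yekutieli adjustment called pathway genes were 13, 13 and 9 in GRO-seq contrasts 2, 3 and 4 and 20 in RNA-seq contrast 2, with low standard errors 17, 16 and 7 in GRO-seq contrasts 2 to 4 and 36 in RNA-seq contrast 1, and at 0.01 they were 18 in GRO-seq contrast 2 and 25 in RNA-seq contrast 2. Of all genes, 355, 520, 48 and 619 rose and 380, 436, 55 and 654 fell with Benjamini-Yekutieli adjustment, in that order. With low standard errors, 930, 940, 159 and 2343 rose and 917, 1052, 163 and 1990 fell. At 0.01, 506 and 800 rose and 536 and 824 fell. Members that differed between assays came to 3 in contrast 2 at 0.01 or with normal quantiles, and to 1 in contrast 5 at 0.01. The shares of all genes that differed at those settings are not given here. Apart from the change that each setting makes by construction, the cause was not tested.

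No paired analysis was possible because the tables hold comparisons and no values per library; for the same reason no replicate was left out. The depth behind each fold is unknown, and the wide GRO-seq errors, a median of 0.32 against 0.058 in RNA-seq, limit what a missing GRO-seq call shows.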
